A study of Mus musculus with 4 samples.

Results

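Gene pairs that overlap head to head are pairs on opposite DNA strands in which each gene begins inside the other, so that transcription of the 2 genes runs outward from a shared stretch around both starts. They were found from the annotated coordinates alone. For each gene the opposite-strand gene with the largest exon overlap, at least 50 bases, was taken as its partner, and the gene was kept where the minus-strand gene of the pair had both the smaller start and the smaller end. This gave 2379 head-to-head genes of the 50600 annotated genes, or 4.70%, in 1336 pairs. Of these genes, 1466 were protein-coding and 913 were not, among them 412 antisense RNAs and 157 long intergenic non-coding RNAs. The pairs consisted of 400 with a protein-coding gene on each strand, 834 with a protein-coding and another gene (mixed pairs) and 102 with no protein-coding gene.

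The 4 RNA-seq libraries come from primary mouse cells (strain C57BL/6NJ) labelled as T-helper 2 cells, the CD4 T cells known for interleukins 4, 5 and 13. The libraries are biological replicates 1 to 4 of a single group under 1 donor identifier, with no treatment, other genotype or comparison group, and with sex and age not given. No label says that each replicate is a different mouse, so the spread between libraries may be technical. In the file headers the sample names carry 0 hours within a time course, and the labels link a differentiation protocol, so how far the cells had differentiated is not known. Totals ran from 1452053 to 2351916 counts per library. The limit that a count of 0 allows, 3 counts, lay between 1.28 and 2.07 CPM (the count scaled to the library total), for counting error only. All 6 T cell markers checked had counts in every library, 392 to 805 summed, while of 6 Th2 markers 4 had any count, 33 to 54 summed, and Il5 and Il13 were at 0. Nearly all of these Th2 marker counts lay on Gata3 (118 in all) and Il4 (53 in all). Il1rl1 had 2 counts and Ccr4 had 1, both in replicate 1 only. Of 3 myeloid markers, Lyz2 was at 0 and Csf1r, a tail-to-tail gene, held nearly all of the 555 to 775 counts. The B cell marker Cd79a had 58 to 87 counts per library. Ms4a1, Tbx21, Ifng, Il17a and Gzmb were also at 0.

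Start sites that face away from each other are common in mammalian genomes and often lie in CpG-rich promoters, from which RNA polymerase starts on both strands. Many housekeeping genes share such a promoter with a second protein-coding gene, and many others with an antisense or divergent non-coding RNA. In a strand-aware count, fragments from the stretch that the 2 genes share are given to a gene by their orientation. Per the file headers, counting used strand setting 1, under which the first read must lie on the gene's own strand. Whether that setting matches the orientation of the libraries was not tested, and the counts below are not read as transcript levels.

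In these pairs the bases just before the start of a gene lie outside that gene but inside its partner. The sequences below come from RefSeq promoter windows on GRCm38.p6 (mm10), 5′ to 3′ on the strand of the named gene, and are shown because the counts of these pairs are described below. Capitals mark matches, on either strand, to 7 short motifs. Searched as the core of each were TATAAA for the box bound by the general initiation machinery, CCAAT for the box bound by factor NF-Y, and GGGCGG, called the GC box, for the site of Sp1. Also searched were CCGGAAG for the ETS family, GCGCATGC for the factor NRF1, AAGATGGC for the factor YY1, and lastly TGACGTCA for the CREB family. Every stretch shown lies wholly within the span of the partner gene. The first 5 precede protein-coding genes whose partner is not protein-coding, and the last 2 precede protein-coding genes whose partner is protein-coding too.
Ftl1, chr7:45459887-45460136, minus strand, inside Gm10252: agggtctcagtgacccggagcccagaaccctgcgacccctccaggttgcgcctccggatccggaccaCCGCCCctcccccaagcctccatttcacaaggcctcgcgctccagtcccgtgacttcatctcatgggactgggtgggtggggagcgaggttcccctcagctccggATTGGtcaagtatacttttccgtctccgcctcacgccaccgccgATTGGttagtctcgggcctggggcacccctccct
Btf3, chr13:98317007-98317256, minus strand, inside Gm9828: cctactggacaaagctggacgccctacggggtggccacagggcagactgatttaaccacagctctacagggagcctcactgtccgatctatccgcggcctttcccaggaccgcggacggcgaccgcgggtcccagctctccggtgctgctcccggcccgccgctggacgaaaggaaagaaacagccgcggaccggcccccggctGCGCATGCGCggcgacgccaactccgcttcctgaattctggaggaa
Pim1, chr17:29490535-29490752, plus strand, inside Gm26885: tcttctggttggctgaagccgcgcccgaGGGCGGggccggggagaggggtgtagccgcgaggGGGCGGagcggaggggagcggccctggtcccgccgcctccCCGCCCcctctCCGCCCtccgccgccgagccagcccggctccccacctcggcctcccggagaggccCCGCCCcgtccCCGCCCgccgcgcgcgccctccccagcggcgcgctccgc
Lef1, chr3:131110073-131110322, plus strand, inside Gm43352: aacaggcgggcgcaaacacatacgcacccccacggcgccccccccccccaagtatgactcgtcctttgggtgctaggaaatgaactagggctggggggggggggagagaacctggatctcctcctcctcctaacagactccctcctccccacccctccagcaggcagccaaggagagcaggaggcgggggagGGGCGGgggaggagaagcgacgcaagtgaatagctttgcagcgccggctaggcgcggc
Jun, chr4:95052223-95052472, minus strand, inside Junos: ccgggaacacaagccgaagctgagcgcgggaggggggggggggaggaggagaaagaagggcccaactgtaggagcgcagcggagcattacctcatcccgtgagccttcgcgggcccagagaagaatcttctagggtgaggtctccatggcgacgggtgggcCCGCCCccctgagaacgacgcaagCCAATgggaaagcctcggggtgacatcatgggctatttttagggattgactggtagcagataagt
Atp5j, chr16:84835626-84835875, minus strand, inside Gabpa: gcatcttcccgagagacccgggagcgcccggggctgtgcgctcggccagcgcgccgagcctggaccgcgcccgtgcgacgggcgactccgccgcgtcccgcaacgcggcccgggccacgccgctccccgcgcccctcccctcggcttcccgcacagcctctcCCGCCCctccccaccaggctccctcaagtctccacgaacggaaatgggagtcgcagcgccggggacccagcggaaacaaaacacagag
Surf1, chr2:26916531-26916780, minus strand, inside Surf2: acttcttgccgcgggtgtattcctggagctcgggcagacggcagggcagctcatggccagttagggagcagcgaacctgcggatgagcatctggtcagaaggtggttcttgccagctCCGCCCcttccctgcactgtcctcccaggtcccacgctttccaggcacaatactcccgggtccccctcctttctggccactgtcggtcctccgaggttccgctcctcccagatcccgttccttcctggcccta
None of the 7 holds the TATA letters searched. The stretches before Arhgdib and H2-Q4, not shown but also wholly inside partners in pairs described below, do hold them. Ftl1 and Jun each hold CCAAT letters beside a GC box, Btf3 holds the NRF1 letters, and Pim1, Lef1, Atp5j and Surf1 hold the GC box alone. The Pim1 stretch was 83.0% G and C with 32 CpG in 218 bases, against 61.2% with 15 CpG in 250 bases for Jun.

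Of the 2379 head-to-head genes, 1449 (60.9%) had a RefSeq window of 300 bases, from 250 before to 50 after the start. The protein-coding ones were rich in CpG. Over 1133 such genes the median was 60.7% G and C and 20 CpG, beside 57.0% and 14 CpG over all 16469 protein-coding genes with a window. A GC box was found in 61.4% of them and in 48.3% of all, and the TATA letters in 7.77% and 12.8%. Tail-to-tail protein-coding genes, which overlap at their ends rather than their starts, gave much the same values, 60.3% G and C, 20 CpG and a GC box in 60.6%. Protein-coding genes free of any opposite-strand gene within 5 kb stood lower, at 52.7%, 7 CpG and 37.7%. The ETS letters, which can bind the family that includes Gabpa, occurred in 25.6% of genes of pairs with 2 protein-coding genes, in 13.5% of protein-coding genes of mixed pairs, and in 19.8% of tail-to-tail ones. Beside these stood 12.4% of all protein-coding genes with a window, and 7.94% of those with no opposite-strand gene within 5 kb. These shares are descriptions of letters in a window and were not tested.

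Within the pairs, fragments lay mostly on 1 of the 2 genes. A pair was tested where it held at least 20 counts over the libraries, which 892 of the 1336 did, while 286 had no count and 158 had fewer than 20. Among the 892, the higher gene held a median of 93.3% of the pair's counts. It held at least 90% in 544 pairs and at least 99% in 174, and in 53 pairs the 2 genes were within a 60 to 40 split. The lower gene was at 0 in every library in 101 pairs. The median difference was 3.82 on the log2 scale, a 14.1-fold difference in counts.

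The 2 genes differed in 781 of 892 pairs at an adjusted p of 0.05 (edgeR quasi-likelihood test with the library as a term, Benjamini-Hochberg over all opposite-strand pairs). This is 87.6%, near the 88.9% of all 2809 opposite-strand pairs tested, so nothing about head-to-head pairs in particular is read from it. The plus-strand gene was the higher one in 370 pairs and the minus-strand gene in 411. The same gene was higher in all 4 libraries in 799 pairs. Across pairs, the log2 ratios of any 2 libraries correlated at r = 0.942 to 0.958, given as a description, since the pairs are not independent samples. The spread of a pair's ratio over the libraries had a median SD of 0.74 on the log2 scale, and 0.56 in the 544 pairs with at least 20 counts on each gene.

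**Figure D1:**
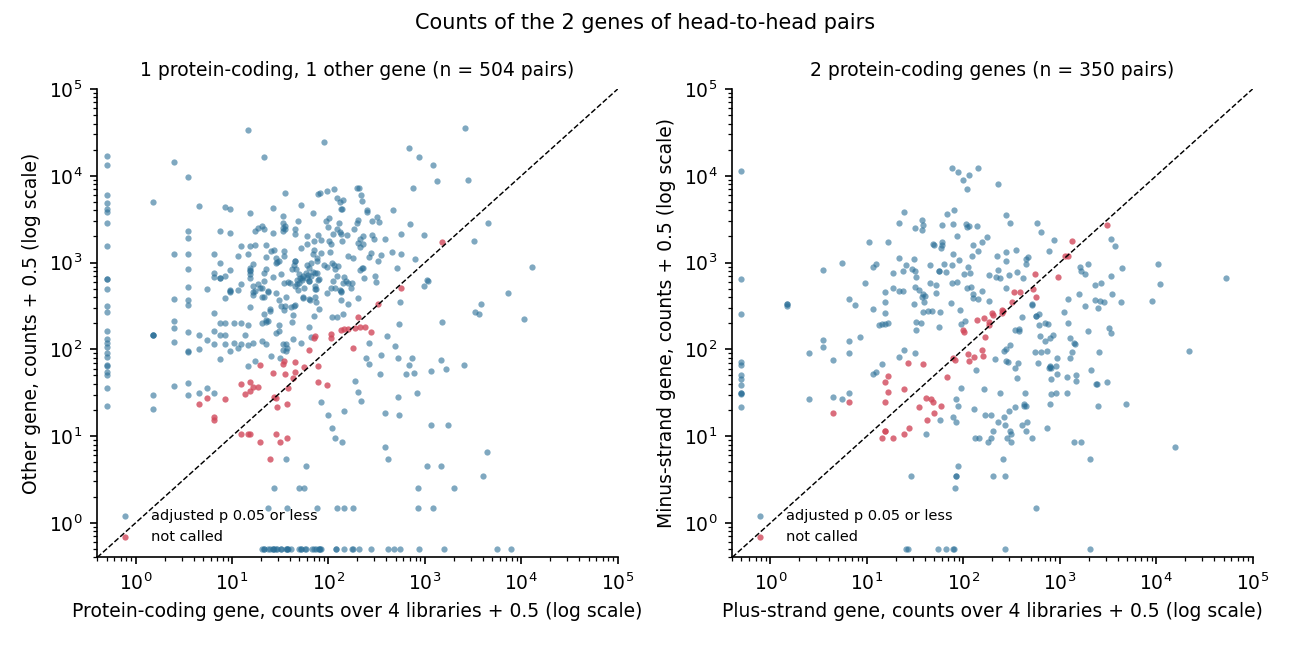
Counts summed over 4 libraries, plus 0.5, of the 2 genes of each tested head-to-head pair, on log axes. On the left each of 504 mixed pairs is a point, protein-coding gene on the horizontal axis and the other gene on the vertical axis, and on the right each of 350 pairs of 2 protein-coding genes. Blue pairs passed an adjusted p of 0.05, red pairs did not and lie near the dashed line of equal counts, and on the left most points lie above that line.

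In mixed pairs, counts leaned to the gene that is not protein-coding. Of 504 tested mixed pairs, the non-coding gene was higher in 342 and the protein-coding gene in 109, with 53 not called. These shares, 67.9% and 21.6%, lie near the 70.3% and 20.6% of all 1604 mixed pairs of any layout. The median log2 ratio of non-coding to protein-coding count was 3.17, 2.77, 3.01 and 3.08 in replicates 1 to 4, a mean of 3.01 ± 0.17 (SD, n = 4) or 8.04-fold. All 4 libraries lay on the same side, as in 2 of the 16 sign patterns possible (two-sided exact permutation, p = 0.13, the smallest that 4 libraries allow). Per base of exon the median was 4.50 ± 0.20. The higher gene was the shorter one in 287 of the 451 mixed pairs called. The larger annotation classes all leaned this way. Antisense RNAs were higher in 182 of 270 pairs and lower in 57, and long intergenic RNAs were higher in 25 of 41 and lower in 11. Genes annotated as bidirectional promoter RNAs were higher in 18 of 24 and lower in 4.

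Many head-to-head genes overlap a further gene of the opposite strand. Among the 781 pairs called, the higher gene did so in 269 (34.4%) and the lower gene in 102 (13.1%), and whether that bears on which gene was higher was not tested. A count was therefore also made over pairs in which neither gene overlaps another opposite-strand gene, a choice made after the values were seen. Of 292 such mixed pairs the non-coding gene was higher in 202 and the protein-coding gene in 56. The median log2 ratio was 3.04 ± 0.16 there, within the spread of the value over all mixed pairs.

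The largest count of any head-to-head gene was at Pde6h, which encodes the inhibitory gamma subunit of the cone photoreceptor phosphodiesterase. It held 16507, 14715, 12308 and 9459 counts in replicates 1 to 4, or 6729 ± 686 CPM (SD, n = 4), which is 6.12% of all counts in head-to-head genes. Its partner Arhgdib, a gene known for its high expression in blood cells, held 144, 221, 176 and 121 counts. The lowest Pde6h library lay far above the highest Arhgdib library, and the ratio was 80.1-fold (log2 6.32, SE 0.194, edgeR adjusted p = 4.7e-12). Pde6h spans chr6:136923832-136968865 on the plus strand and Arhgdib chr6:136923655-136941899 on the minus strand, so their starts are 18067 bases apart while their exons share 136 bases.

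H2-Q4 encodes a class I major histocompatibility protein. Its counts were 745, 776, 641 and 456, while the antisense gene Gm11131 held 10353, 10124, 8362 and 6599. Gm11131 was higher in every library, 13.6-fold overall (log2 3.77, SE 0.149, edgeR adjusted p = 2.4e-11). The ratio varied little, with an SD of 0.07 over the libraries.

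Ftl1, the light chain of the iron store ferritin, had 3, 44, 29 and 13 counts against 6254, 6861, 6540 and 4844 at Gm10252, an unclassified transcript annotated over its start. Gm10252 was 297-fold higher (log2 8.21, SE 0.374, edgeR adjusted p = 8.2e-11). Replicate 1 had the lowest Ftl1 count, at the limit that a count of 0 allows, and the SD of the log2 ratio was 1.56. The pair shares 355 exon bases, and its starts are 415 bases apart.

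Btf3, the beta subunit of the complex that binds newly made peptides at the ribosome, had 29, 37, 25 and 23 counts. Its partner Gm9828, annotated as a bidirectional promoter RNA, had 1786, 1908, 1837 and 1566. The groups of values were far apart and steady, 62.4-fold with an SD of 0.22 on the log2 scale (edgeR adjusted p = 9.6e-12). Pim1, a serine/threonine kinase induced by cytokines, had 4, 30, 23 and 24 counts against 1837, 1336, 1714 and 1418 at the antisense gene Gm26885. Its ratio of 78.6-fold varied more, with an SD of 1.45, and replicate 1 again had the lowest count of the protein-coding gene.

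Other mixed pairs in which neither gene overlaps a further opposite-strand gene ran the same way. Pycard, the adaptor of inflammasomes, had 77 counts in all against 6163 at Gm45205. Rbm3, a cold-induced RNA-binding protein, had 141 against 5297 at its antisense gene Rbm3os. The protease Capn1 had 18, 47, 50 and 8 counts against 5483 at Gm10814 in all, and the lysosomal membrane protein Sidt2 had 137 against 4118 at A830035O19Rik. Ccnl1, a cyclin tied to splicing, was closer to its partner, with 464 against 4073 at Gm37305. The reverse order also occurred. Ak3, an adenylate kinase of the mitochondrial matrix, had 959, 1037, 1138 and 655 counts while its antisense gene 1700018L02Rik had 57, 102, 99 and 78 (11.3-fold, edgeR adjusted p = 1.6e-09).

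**Figure D2:**
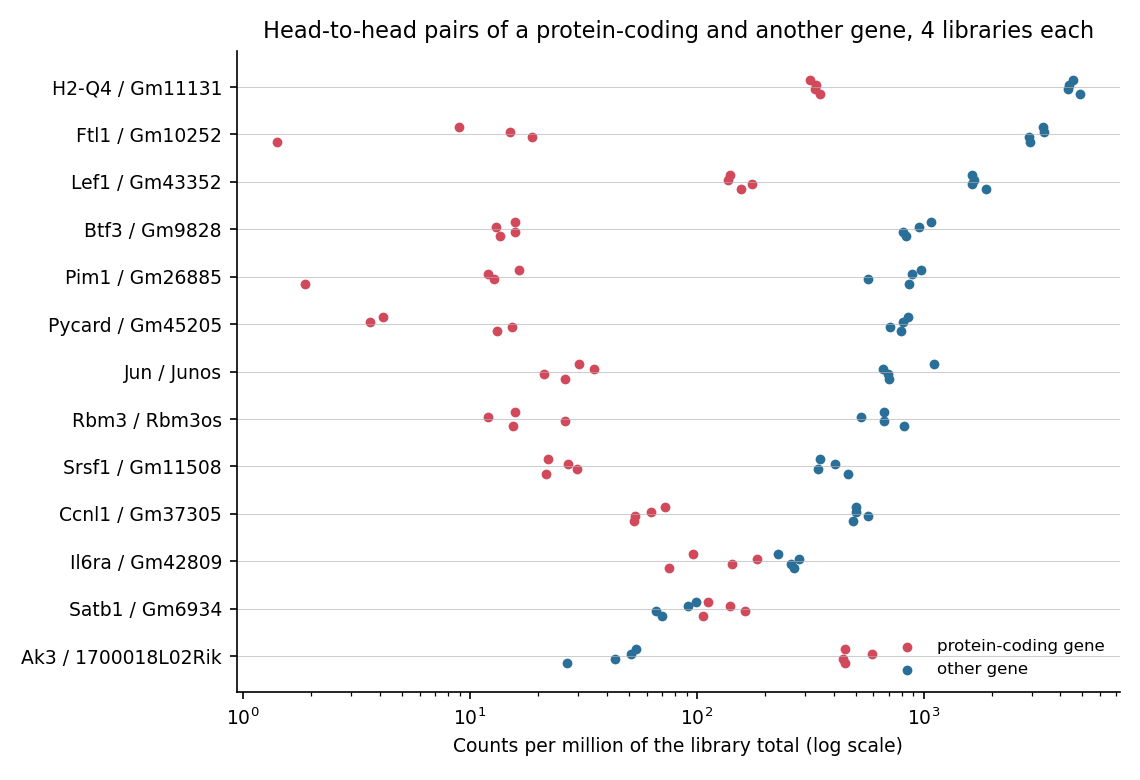
CPM on a log axis of both genes of 13 mixed pairs, 4 points per gene for replicates 1 to 4, with the protein-coding gene in red and the other gene in blue. In the first 11 pairs every blue point lies to the right of every red point, in the Ak3 pair every red point lies to the right, and the Satb1 pair lies close together.

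At the ends of the range 1 gene had no count at all. B130046B21Rik held 16990 counts while Ddn, which encodes dendrin of neurons and kidney podocytes, had 0, at least 5663-fold lower against 3 counts over the group. E530011L22Rik held 13218 against 0 at Zfp651 (at least 4406-fold), Gm5577 held 5952 against 0 at the linker histone gene H1fx (at least 1984-fold) and D630044L22Rik held 4847 against 0 at A930017K11Rik (at least 1616-fold). At the opposite extreme the largest such fold limit was lower. Pigb, an enzyme of glycosylphosphatidylinositol anchor synthesis, held 7754 counts against 0 at 2310009A05Rik (at least 2585-fold), and Far2 held 5554 against 0 at Far2os2 (at least 1851-fold). Esrp2 held 1583 against 0 at 1810019D21Rik (at least 528-fold), and Baiap2l1 held 862 against 0 at Dmrt1i (at least 287-fold). In each of these pairs the gene with counts also overlaps a further opposite-strand gene. These are Prkag1, Nktr, Rab7, Capn15, Ccpg1, Ergic2, Nfatc3 and Bri3, in that order. Of the 10 pairs with the most counts, 5 were likewise led by a non-coding gene that overlaps a further gene. Gm26582, which also overlaps G3bp2, held 33498 against 14 at Cdkl2, Gm2245, which also overlaps Fyb, held 22287 against 3 at Gm7666, and Gm15491, which also overlaps Mgea5, held 16377 against 21 at Npm3. Gm29585, opposite Zc3h10 as well, held 21147 against 683 at Esyt1.

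Only 5 genes of the T cell list were in head-to-head pairs, and 4 of them were lower than their partner. Over all layouts, 57.5% of 3291 tested protein-coding genes were lower than their partner and 30.9% higher. Lef1, a transcription factor of the Wnt pathway that is high in naive T cells, had 335, 410, 263 and 203 counts against 4023, 3853, 3185 and 2369 at the antisense gene Gm43352. Every library kept the 2 genes apart, at 11.2-fold overall (log2 3.49, SE 0.162, edgeR adjusted p = 9.3e-11). This pair shares 1208 exon bases. Jun, a subunit of the AP-1 transcription factor, had 56, 50, 68 and 44 counts against 1494, 1641, 1270 and 1607 at Junos, 27.5-fold apart (edgeR adjusted p = 8.1e-11).

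Il6ra, the receptor for interleukin 6, lay nearer to its partner. It had 160, 337, 353 and 140 counts, and Gm42809 had 570, 609, 540 and 332, a 2.18-fold difference (edgeR adjusted p = 0.00029). Gfi1, a repressor that acts in T cell growth, had 2, 4, 4 and 3 counts, close to the limit of a count of 0, against 49, 40, 39 and 19 at A430072P03Rik. Satb1, a chromatin organiser of developing T cells, was the 1 member that was higher, with 226, 383, 268 and 163 counts against 149, 156, 176 and 144 at Gm6934 (1.60-fold, edgeR adjusted p = 0.017). That order did not hold per base of exon, where Gm6934 was higher by 2.64 on the log2 scale, and without replicate 2 the call was lost (adjusted p = 0.13). Gata3, the factor that defines T-helper 2 cells, is not in a head-to-head pair.

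Pairs of 2 protein-coding genes were called unequal in 297 of 350 cases, with a median of 91.5% of counts on the higher gene. This is 84.9%, near the 88.9% of all opposite-strand pairs tested. Among pairs of 2 protein-coding genes it was 86.6% in the tail-to-tail and 90.5% in the nested layout. Of the 1057 tested protein-coding head-to-head genes, whatever the partner, 603 were lower than it and 313 higher, with a median log2 difference of -2.0 beside -2.02 over all layouts. Some pairs were nearly equal. Creb3, a membrane-bound transcription factor of the secretory pathway, had 339, 360, 297 and 208 counts, and Tln1, which links integrins to actin, had 300, 390, 299 and 185. The values overlapped and each gene was higher in 2 libraries (log2 0.05, SE 0.192, edgeR adjusted p = 0.80). Tln1 has the longer exons, and per base of exon Creb3 was higher by 2.10. Snx17 and Eif2b4 had 1134 and 1192 counts in all, Elf1 and Wbp4 had 527 and 501, and Sugp2 and Armc6 had 253 and 260, none of them called.

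Well known pairs with a shared promoter were moderately unequal. Hspd1 and Hspe1 encode the mitochondrial chaperone and its co-chaperone. Hspd1 had 79, 96, 139 and 61 counts and Hspe1 had 40, 31, 52 and 19 (2.67-fold, edgeR adjusted p = 0.0012), but the pair was not called per base of exon (log2 0.58 toward Hspd1). Surf1, needed to assemble cytochrome c oxidase, had 367, 324, 405 and 268 counts, above the 199, 221, 215 and 129 of Surf2 in every library (1.80-fold, edgeR adjusted p = 0.0013). Gabpa, an ETS-family factor, had 582, 563, 523 and 300 counts and the ATP synthase gene Atp5j had 252, 239, 288 and 186, 2.00-fold apart (edgeR adjusted p = 0.00022). Per base of exon that difference was 0.14 on the log2 scale and was not called. Tap1, the peptide transporter of antigen presentation, had 180, 212, 147 and 97 counts, and Psmb9, a subunit of the immunoproteasome, had 650, 629, 597 and 374 (3.59-fold, edgeR adjusted p = 5.3e-07). Parp9 was 2.06-fold above its binding partner Dtx3l, with 1645 against 801 counts.

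Other coding pairs were far apart. Ubl5, a ubiquitin-like splicing cofactor, had 3231, 2992, 2759 and 2059 counts and the F-box gene Fbxl12 had 144, 166, 158 and 102, 19.4-fold apart with an SD of 0.16 on the log2 scale. Emc8, of the endoplasmic reticulum membrane complex, had 4019 counts in all against 79 at Cox4i1, a subunit of cytochrome c oxidase. Slc25a11, a carrier of the mitochondrial inner membrane, had 3525 against 275 at Rnf167. The most unequal coding pairs were Plppr3 over the neutrophil protease gene Prtn3 (11463 against 0, at least 3821-fold), Tulp2 over Gm45808 (2074 against 0, at least 691-fold), Cntd1 over Coa3 (15791 against 7) and Gcc1 over Fscn3 (648 against 0, at least 216-fold). Their higher genes also overlap Ptbp1, Ppp1r15a, Becn1 and Arf5, in that order.

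The functional lists did not all lean the same way. Of 7 tested cytosolic ribosomal protein genes, 5 were higher than their partner, 1 was lower and 1 was not called, with a median log2 difference of 5.96. Rps25 had 702, 719, 593 and 402 counts against 14, 13, 7 and 5 at Trappc4, Rpl12 had 1661 in all against 8 at Lrsam1, and Rps18 had 1611 against 49 at Vps52. Rpl15 was the exception, with 353 against 4353 at Nkiras1, and Rpl18 was not called (1335 against 1753 at Sphk2, edgeR adjusted p = 0.076). Rps25, Nkiras1 and Sphk2 also overlap the further opposite-strand genes Ccdc84, Ube2e1 and Dbp, in that order. Respiratory chain genes ran the other way, with 10 of 12 lower and 2 higher and a median of -2.86. Atp5d had 155 counts against 1735 at Cbarp and Ndufb11 had 200 against 1213 at Rbm10, while Atp5f1 had 1730 against 16 at Wdr77. These lists are short and are described by their counts, beside the 57.5% lower and 30.9% higher of all protein-coding genes tested.

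Mitochondrial ribosomal protein genes were divided, with 7 lower and 6 higher of 13. Mrpl47 had 3829 counts against 24 at Ndufb5 and Mrpl48 had 2672 against 113 at Rab6a, whereas Mrpl18 had 39 against 2351 at Tcp1. Mrpl47 also overlaps a further opposite-strand gene, Actl6a. Mrpl46 and Mrps11, both members of the list, are each other's partner, with 519 and 31 counts. Chaperone genes divided 5 to 5, where Hspd1 and Hspe1, as each other's partner, give 1 call in each direction. Of 11 proteasome and ubiquitin genes 7 were lower and 1 higher, and Usp38, a deubiquitinase, had 33 counts against 3479 at Gm9725. Of 11 genes of RNA polymerase and splicing 5 were lower and 4 higher. Srsf1, a splicing factor, had 46, 70, 52 and 32 counts against 989, 807, 782 and 504 at Gm11508, and Hnrnpk had 947 against 25 at Rmi1. Of 11 replication and repair genes 6 were lower and 2 higher, with Mcm7, a subunit of the replicative helicase, at 707 against 3404 at Ap4m1. In that pair Ap4m1 also overlaps Taf6 and Mcm7 also overlaps Cops6. Zinc finger genes were lower in 17 of 26 tests and higher in 5, with Zfp646 and Zfp668 again each other's partner, and of 2 histone genes 1 was lower and 1 not called.

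Pairs with distant starts were called unequal more often, a trend that was not tested. The distance between the starts, which is also the length of the shared span, had a median of 608.5 bases, and the exon overlap had a median of 216.5 bases. Of pairs with starts up to 200 bases apart, 119 of 154 (77.3%) were called, and the higher gene held a median of 91.6% of counts. Beyond 5000 bases 51 of 54 (94.4%) were called, with a median of 97.5%. The median counts per pair were 46.5, 71.5, 93.9, 77.3 and 67.2 CPM from the closest to the farthest of the 5 distance classes, lowest in the closest pairs but not rising throughout. The part of depth in the shares called was not tested. Pairs of 2 protein-coding genes made up 94 of the 210 closest pairs and 21 of the 106 farthest, untested pairs included. Whether that bears on the trend was not tested either. By exon overlap the share called went from 80.6% at under 100 bases to 94.4% above 400 bases, while the median pair rose from 43.9 to 120.9 CPM.

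**Figure D3:**
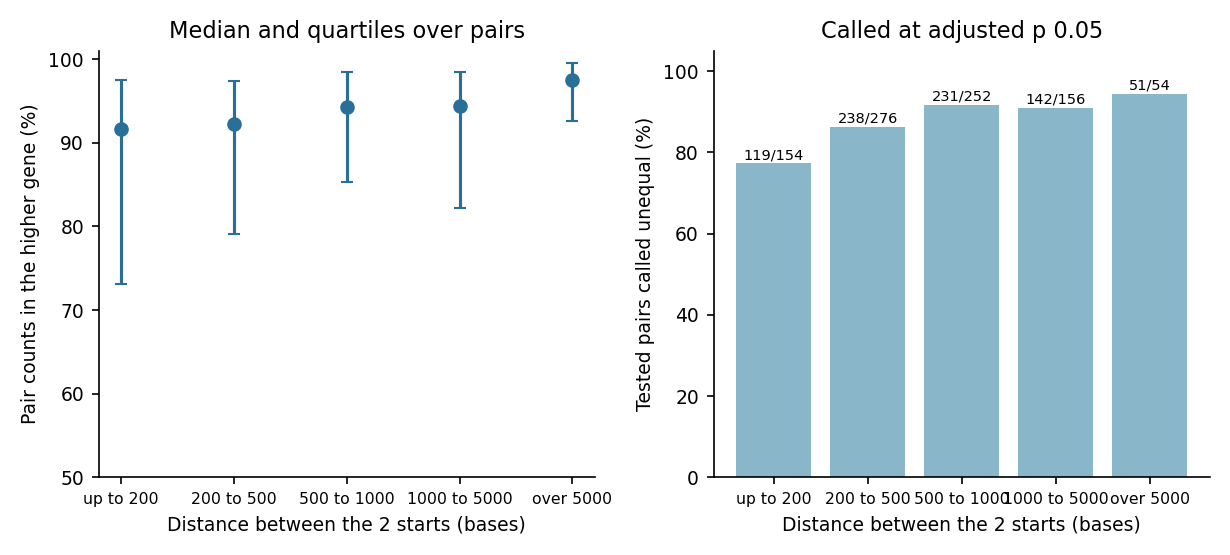
Left, the percentage of a pair's counts on its higher gene, median (point) and quartiles (bars) over tested pairs, by the distance in bases between the 2 starts. Right, the percentage of tested pairs called unequal, with the numbers called and tested above each bar. The share goes from 77.3% at the closest starts to 94.4% at the farthest.

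Against other layouts, head-to-head mixed pairs leaned less than tail-to-tail ones. The median log2 ratio of non-coding to protein-coding count was 4.37 ± 0.18 (SD, n = 4) in 343 tail-to-tail pairs, in which the gene ends overlap, and 3.31 ± 0.24 in 757 nested pairs, in which a gene lies within the span of the other. The head-to-head value minus the tail-to-tail value was -1.36 ± 0.066, and minus the nested value -0.30 ± 0.10, below 0 in 4 of 4 libraries each. For each difference 2 of 16 sign patterns over the libraries are as extreme (two-sided exact permutation, p = 0.13), the fewest possible, so the design cannot reach 0.05. The tail-to-tail difference was far larger than its spread over libraries, but that spread leaves out the variation between pairs.

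**Figure D4:**
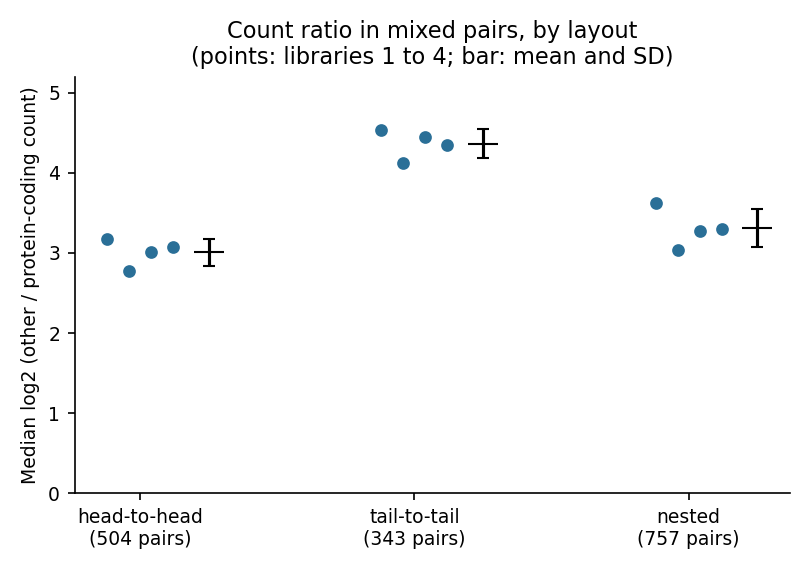
Median log2 ratio of non-coding to protein-coding count over mixed pairs (vertical axis), by layout. Each point is a library and the bar gives the mean and SD over 4 libraries. The 4 head-to-head points lie between 2.77 and 3.17, all below the 4 tail-to-tail points.

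Head-to-head genes held 11.44, 10.21, 11.56 and 11.02% of all counts in replicates 1 to 4, a mean of 11.1% ± 0.610 (SD, n = 4), with 7.43% of the exon length. Tail-to-tail genes held 38.6% ± 3.39 with 8.57% of exon length, and nested genes 35.6% ± 4.09 with 8.37%. The 27094 genes that had none on the opposite strand within 5 kb held 3.49% ± 0.476 with 41.2% of exon length. Within the head-to-head set the counts were concentrated, since 10 genes held 22.3% and 100 genes 57.1% of them, and 766 genes had no count. Concentration was not computed for other layouts. A count was present in 67.8% of head-to-head genes, beside 33.6% of all genes, 81.4% of tail-to-tail and 62.7% of nested genes.

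Per length, the mean log2(CPM per kb of exon + 0.5) of head-to-head genes was 1.29 ± 0.037 (SD, n = 4). Relative to tail-to-tail genes the difference was -1.25 ± 0.034, and the value was above that of genes without an opposite-strand neighbour within 5 kb by 2.04 ± 0.027. Relative to nested genes it was -0.29 ± 0.027. Among protein-coding genes alone the last difference turned round, to 0.42 ± 0.021 higher in head-to-head genes, although their counts summed over genes and exon length, given below, ran the other way. Each difference had the same sign in 4 of 4 libraries, and 2 of 16 sign patterns are as extreme (two-sided exact permutation, p = 0.13) before and after adjustment over the 3 differences. Summed per class, protein-coding head-to-head genes held 7.85 ± 0.371 CPM per kb and the other head-to-head genes 29.0 ± 1.92. Nested protein-coding genes held 8.36 ± 0.489, above the head-to-head ones in each of the 4 libraries. For genes without such a neighbour the order was the opposite, 0.948 ± 0.137 for protein-coding and 0.177 ± 0.0125 for other genes.

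**Figure D5:**
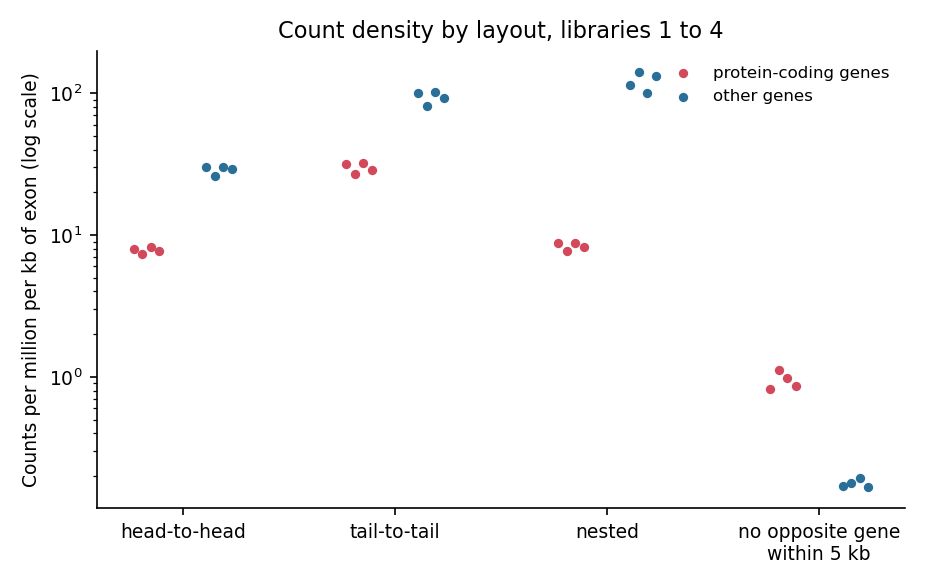
CPM per kb of exon, summed over the genes of a class (vertical axis, log scale), by layout, with 4 points per class for replicates 1 to 4. Other genes (blue) lie above protein-coding genes (red) in the 3 overlapping layouts, at 29.0 and 7.85 on average in the head-to-head one, and below them where no opposite-strand gene lies within 5 kb.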

How the data were processed

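The deposited tables, 1 per library, hold raw fragment counts per gene and each gene's exon length. The authors made the counts with featureCounts 1.4.6-p4, per the file headers, from read pairs on exons of GENCODE mouse release 13 (mm10), using strand setting 1 and requiring both ends to align. The headers record no normalization of the counts. The kit used for the libraries is not given in the sources used here. The command recorded there lacks the option that would count fragments fitting more than 1 gene.

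Exon overlaps were computed with bedtools 2.31.1 from the deposited coordinates. A tie for the largest overlap kept the first identifier (20 ties). Pairs just outside the minimum, with 40 to 49 shared bases, held a median of 92.4% of counts on the higher gene (17 pairs of 20 counts or more), and those with 50 to 59 bases 94.3% (27 pairs). Gene types came from GENCODE mouse release 21, which matched 50376 genes, and 224 kept their identifier.

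Partners were compared with edgeR 4.0.16 (R 4.3.3), with pairs as rows, 8 columns (plus- and minus-strand gene in 4 libraries), the library as a term, library totals as sizes and a pair total of at least 20 counts. On simulated counts for 2809 pairs with 200 changed, edgeR recovered 83% of 2-fold and 90% of 4-fold changes with 4 false calls. The simulation gave all pairs a single fixed dispersion and set the unchanged pairs exactly equal. Of the real pairs, 88.9% were called unequal, and whether the simulated rates hold for them was not tested. DESeq2 1.42.0 was an alternative. Folds against a gene at 0 used 3 counts over the 4 libraries. For values per library, the sign was flipped in all 16 ways over the libraries, an exact permutation test taken as two-sided. Log2 ratios per library used a pseudocount of 0.5 counts, and CPM per kb a pseudocount of 0.5, which understates the differences of low genes. All values were computed with Python 3.11.15 and pandas 2.3.3.

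The named pairs were the 10 with the highest CPM, the 4 most and 4 least unequal coding pairs of 200 counts or more, and the 4 mixed pairs of 100 counts or more at each end of the ratio. Added to these were T cell list pairs, the 3 pairs of each other list with most counts, and the pairs of Hspd1 and Surf1; Gata3 and Brca1 are not members. The 20 pairs with most counts in which neither gene overlaps another opposite-strand gene, and the list genes beyond the first 3, were named after their values were seen. Members and lists were chosen with earlier results of these data known. Separate strand signal tracks were not analysed here.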

Additional observations from a re-analysis of the deposited data

Results flagged for a closer look

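Each named pair's log2 ratio and 5 summary values were checked over the 4 libraries for a library that stands apart by Dixon's 95% criterion, 74 groups in all, of which chance flags about 1 in 20. It marked 4. The log2 ratio of D630044L22Rik over A930017K11Rik was 10.7 in replicate 4, and that of Far2 over Far2os2 was 10.9 in replicate 4, each the lowest of its pair. In both pairs the lower gene is at 0 in every library, so the ratio follows the higher gene's count and the pseudocount of 0.5, and replicate 4 has the smallest total. The ratio of Lef1 over Gm43352 was -3.23 in replicate 2, the highest, while the mean over the libraries was -3.49 with an SD of 0.17. That of ENSMUSG00000091095, a gene without a symbol in the tables, over Chd3 was 2.37 in replicate 2, the lowest, beside a mean of 2.76.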

How the results depend on the processing

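The number of head-to-head pairs called stayed between 681 and 787 per exon length, with no filter, with a pair total of at least 100 counts and with DESeq2. It was 437 of 481 with an overlap of at least 200 bases, 467 of 547 in reciprocal pairs outside any other pair, and 435 of 507 where neither gene overlaps another, a set added after seeing the data; these alternatives test fewer pairs. Without 1 replicate it ran from 732 to 756. The median non-coding over coding ratio stayed positive, from 2.16 to 4.50. The share of counts was 7.78% with at least 200 bases and 9.92% with reciprocal pairs, which keep fewer genes, and 10.9 to 11.3% without 1 replicate. The level against nested genes turned to 0.42 with protein-coding genes only and was -0.65 with the other genes only, a set added after seeing the data. The cause was not tested. The level differences to the other 2 layouts kept their sign under the alternatives run, but their size depends on the pseudocount: with 0.05 and 5 in place of 0.5 they were -1.78 and -0.72 against tail-to-tail genes, and 3.49 and 0.91 against genes without an opposite-strand neighbour within 5 kb.

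Of 665 values of the 69 named pairs under alternatives, 654 kept their direction and side of the threshold. Those reversed were Sugp2 over Armc6 (-2.10 per exon length, -0.23 to 0.35 without 1 replicate, below 0 without replicate 3 or 4), Snx17 over Eif2b4 (-0.11 to 0.011 without 1 replicate, above 0 without replicate 3), Elf1 over Wbp4 (-0.21 per exon length, -0.043 to 0.32 without 1 replicate, below 0 without replicate 4) and Gm6934 over Satb1 (2.64 per exon length). All but the last were not called in the first place. Counts cover counting error only, and ratios with a partner near 3 counts are imprecise. No paired analysis was possible because there is 1 group, so no samples pair across groups. The 2 genes of a pair were compared within each library.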

Other observations

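A few further pairs were picked after their values were seen and say nothing about immune genes as a group. Of all tested protein-coding head-to-head genes, 603 of 1057 were lower than their partner, and over all layouts 57.5% were. In the Acaa1a/Myd88 pair the adaptor of Toll-like receptors, Myd88, had 26, 33, 28 and 5 counts against 656, 636, 733 and 532 at Acaa1a, a peroxisomal thiolase. In the Irf3/Bcl2l12 pair the interferon regulatory factor Irf3 had 139 counts in all against 2630. In the Gm26879/Traf5 pair the receptor adaptor Traf5 had 60 against 2038. The higher genes of the last 2 pairs, Bcl2l12 and Gm26879, also overlap the opposite-strand genes Gm15545 and Rcor3, in that order. The tetraspanin genes Cd81 and Cd9 were also lower than their partners, with 7 counts at Cd81 against 989 in the Cd81/R74862 pair and 22 at Cd9 against 1602 in the Gm26728/Cd9 pair.

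The Gimap1/Gimap1os pair, in which Gimap1os also overlaps Gm28053, was less unequal. Gimap1, a GTPase of lymphocytes, had 856, 811, 664 and 472 counts and its antisense gene had 2715, 2471, 2274 and 1587, a log2 difference of -1.70 (edgeR adjusted p = 6.9e-08). Pairs with no protein-coding gene were few, 38 tested of 102, and 33 of them were called, with a median of 97.9% of counts on the higher gene. The share called, 86.8%, lay near the 88.9% of all opposite-strand pairs tested.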
